A study of Mus musculus with 12 samples.

Results

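The genes of the proteasome were followed through translating RNA of mouse rods and RNA of the whole retina. They were all genes of the deposited table whose symbol starts with Psm, a letter from a to g and a digit, which gave 51 of 56748 genes after 5 pseudogene entries (symbols ending in -ps) were set aside. By their known roles the 51 genes comprised 7 alpha-ring subunits, 4 structural beta subunits, 3 constitutive catalytic subunits, 3 immunoproteasome catalytic subunits and 2 tissue-restricted subunits of the 20S core. The 19S cap gave 6 ATPases, 3 other base subunits and 8 lid subunits. The remaining genes were 5 activators, 1 inhibitor, 7 assembly factors, and *Psmc3ip* and *Psme3ip1*, which match by name but encode proteins that are not proteasome subunits.

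The 26S proteasome degrades ubiquitin-tagged proteins inside a barrel, the 20S core, whose beta subunits do the cutting, after the 19S cap has recognised, unfolded and threaded the substrate. Interferon induces *Psmb9*, *Psmb10* and *Psmb8*, which replace the 3 constitutive catalytic subunits (*Psmb6*, *Psmb7*, *Psmb5*) in newly assembled cores to form the immunoproteasome, which favours peptides for antigen presentation, and alternative activators such as PA28 (*Psme1* with *Psme2*) can take the place of the cap. Rods renew their light-sensing outer segments throughout life, and this turnover makes protein quality control a long-standing subject in photoreceptor disease.

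All mice carried Ribo-Tag, an HA-tagged ribosomal protein that is switched on by Cre, and i75-Rod-Cre, a rhodopsin-promoter Cre that acts in rods. Control mice (Pkm2 Rodhet, Pkm2 fl/+) had 1 floxed *Pkm2* allele and knockout mice (Pkm2 Rodko, Pkm2 fl/fl) had 2, so rods of the control mice had also lost 1 functional allele, and no mouse without Cre was included here. The mice were 2 months old by the study's methods and 2 weeks old by the series' design text, and their tissue was frozen after cycloheximide perfusion. Polyribosomal RNA pulled down from rods by Rod-TRAP (called rods here) and RNA of the total lysate (called retina) were each sequenced from 3 control and 3 Pkm2 Rodko samples, 12 libraries of 13458890 to 22790074 reads counted on genes.

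The fractions matched their labels by rod markers, while markers of other cell types fell to differing degrees. On reads scaled over the 12 libraries by TMM, which sets library sizes from a trimmed mean of gene ratios, 8 of 8 rod markers were higher in rods (limma on log2(scaled reads + 1), Benjamini-Hochberg adjusted p under 0.05), with log2 ratios of 1.84 to 2.08. All 9 microglial, 7 endothelial and 6 Müller glial markers were lower, with median log2 ratios of -3.17, -3.06 and -2.98. No listed marker of these cell types was at 0 in all libraries of a rod group. All 8 amacrine and ganglion markers also fell (median -3.15), as did 7 of 8 bipolar markers (median -3.37), but *Prkca* did not (-0.02). The 6 cone markers fell less (median -0.67). Among all genes tested on this scale, 27.2% rose and 42.7% fell, with a median log2 ratio of -0.39. *Pkm*, the targeted gene, had deposited values of 52141, 51049 and 54504 in control rods and 23751, 22553 and 22246 in Pkm2 Rodko rods (log2 fold change -1.20, adjusted p = 5.36e-05 from limma). In retina its deposited values were 31190, 34234 and 31548 in control and 20107, 20328 and 21153.5 in Pkm2 Rodko. This was a fall of 0.65 on the log2 scale (adjusted p = 0.0219 from limma). Leaving out any retina library other than control replicate 2 ended the call (adjusted p up to 0.949 from limma). The replicate number as a block also did (adjusted p = 0.157 from limma), but it joins control and Pkm2 Rodko libraries that were not paired. The counts cover both *Pkm* isoforms.

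RefSeq promoters were printed for 3 pairs whose members differed in their ratio of rods to retina, as described below. These were *Psmb5* and its replacement *Psmb8*, *Psmb6* and its replacement *Psmb9*, and the PA28 partners *Psme1* and *Psme2*. The catalytic pairs differed in direction, while *Psme1* and *Psme2* were both lower in rods, by different amounts. Each stretch runs from 250 bases before to 50 bases after the gene start, on the gene's strand, in GRCm38.p6, a different build from the GRCm39 named in the submitters' processing notes. Capitals mark TGANNNNGC, the core of the antioxidant response element that NRF factors read, and CCAAT, each searched on both strands.
Psmb5: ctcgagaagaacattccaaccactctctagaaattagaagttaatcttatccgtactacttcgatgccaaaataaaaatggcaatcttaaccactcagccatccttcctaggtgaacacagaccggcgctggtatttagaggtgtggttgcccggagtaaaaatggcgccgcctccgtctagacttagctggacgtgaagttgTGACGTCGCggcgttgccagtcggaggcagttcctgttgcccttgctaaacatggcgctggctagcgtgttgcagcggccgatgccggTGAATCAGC
Psmb8: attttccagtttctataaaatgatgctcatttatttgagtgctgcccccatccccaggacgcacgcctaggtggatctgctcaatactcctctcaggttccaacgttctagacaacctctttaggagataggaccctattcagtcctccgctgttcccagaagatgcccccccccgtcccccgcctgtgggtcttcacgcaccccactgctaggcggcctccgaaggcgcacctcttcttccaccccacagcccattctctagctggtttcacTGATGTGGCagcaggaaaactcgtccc
Psmb6: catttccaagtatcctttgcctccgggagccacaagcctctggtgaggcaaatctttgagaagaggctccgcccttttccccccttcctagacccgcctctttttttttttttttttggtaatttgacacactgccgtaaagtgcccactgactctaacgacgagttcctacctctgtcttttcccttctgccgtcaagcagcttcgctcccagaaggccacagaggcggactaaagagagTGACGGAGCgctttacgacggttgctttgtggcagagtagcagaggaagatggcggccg
Psmb9: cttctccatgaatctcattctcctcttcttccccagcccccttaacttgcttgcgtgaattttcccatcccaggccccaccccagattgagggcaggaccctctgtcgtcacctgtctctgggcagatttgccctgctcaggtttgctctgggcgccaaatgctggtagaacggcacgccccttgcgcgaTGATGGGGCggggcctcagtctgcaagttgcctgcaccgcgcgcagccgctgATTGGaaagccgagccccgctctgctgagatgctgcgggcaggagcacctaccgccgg
Psme1: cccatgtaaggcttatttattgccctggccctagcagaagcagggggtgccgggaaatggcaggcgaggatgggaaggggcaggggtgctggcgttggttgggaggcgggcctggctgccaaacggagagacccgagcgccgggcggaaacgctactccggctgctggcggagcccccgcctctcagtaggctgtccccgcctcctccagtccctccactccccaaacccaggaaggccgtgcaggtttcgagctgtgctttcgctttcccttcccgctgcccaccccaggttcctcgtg
Psme2: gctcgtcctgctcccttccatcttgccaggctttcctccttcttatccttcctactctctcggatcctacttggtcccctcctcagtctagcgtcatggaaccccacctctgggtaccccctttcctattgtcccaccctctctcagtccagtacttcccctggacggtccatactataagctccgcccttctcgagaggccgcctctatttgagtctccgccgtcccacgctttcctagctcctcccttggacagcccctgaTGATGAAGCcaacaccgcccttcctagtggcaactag
The positions are chr14:54617946-54618245 (minus strand) for *Psmb5*, chr17:34197945-34198244 (plus) for *Psmb8*, chr11:70525107-70525406 (plus) for *Psmb6*, chr17:34187281-34187580 (minus) for *Psmb9*, chr14:55578244-55578543 (plus) for *Psme1* and chr14:55591052-55591351 (minus) for *Psme2*. TGANNNNGC occurred 2 times in the *Psmb5* window, 1 time in each of the *Psmb8*, *Psmb6*, *Psmb9* and *Psme2* windows and not in that of *Psme1*. CCAAT occurred only in the *Psmb9* window, on the reverse strand, and in none of the 6 windows did the motifs share a base. Promoters were found for 43 of the 51 genes, which did not include *Psmb7*. TGANNNNGC was present in 25 of them (58.1%), against 45.0% of 27025 genes in the promoter table, and CCAAT in 16 (37.2%) against 41.1%. By complex, TGANNNNGC was present in 8 of 11 constitutive core genes, 6 of 14 cap genes and 2 of 3 immunoproteasome genes. A match describes the letters of the window and is not a binding site.

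On the TMM scale the constitutive proteasome was higher in rods than in retina and the immunoproteasome was lower. Of the 50 genes tested, 42 rose and 6 fell in rods, while among all 25478 genes tested 27.2% rose and 42.7% fell, with a median log2 ratio of -0.39. The 6 include *Psma8*, whose call rests on 8 reads, as described below. All 14 constitutive core subunits rose (median log2 ratio 0.90), as did all 17 cap subunits (median 0.70) and all 7 assembly factors (median 0.81), and all 3 immunoproteasome subunits fell (median -2.50). The size of these values depended on the scale, and so did the call and the direction for some cap and assembly genes. With total reads in place of TMM, 10.6% of all genes rose, 57.5% fell and the all-gene median was -0.74; 25 members rose and 11 fell, the core median was 0.33 (12 of 14 subunits rose), the cap median 0.13 (8 rose and 1 fell) and the immunoproteasome median -2.99. Relative to the median of all genes, the core lay at 1.29 with TMM and 1.07 with total reads, the cap at 1.09 and 0.87, and the immunoproteasome at -2.11 and -2.25. In bulk RNA, fewer cells of a type and less RNA per cell cannot be told apart, and a ratio of polyribosomal to total RNA also carries ribosome occupancy.

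**Figure D1:**
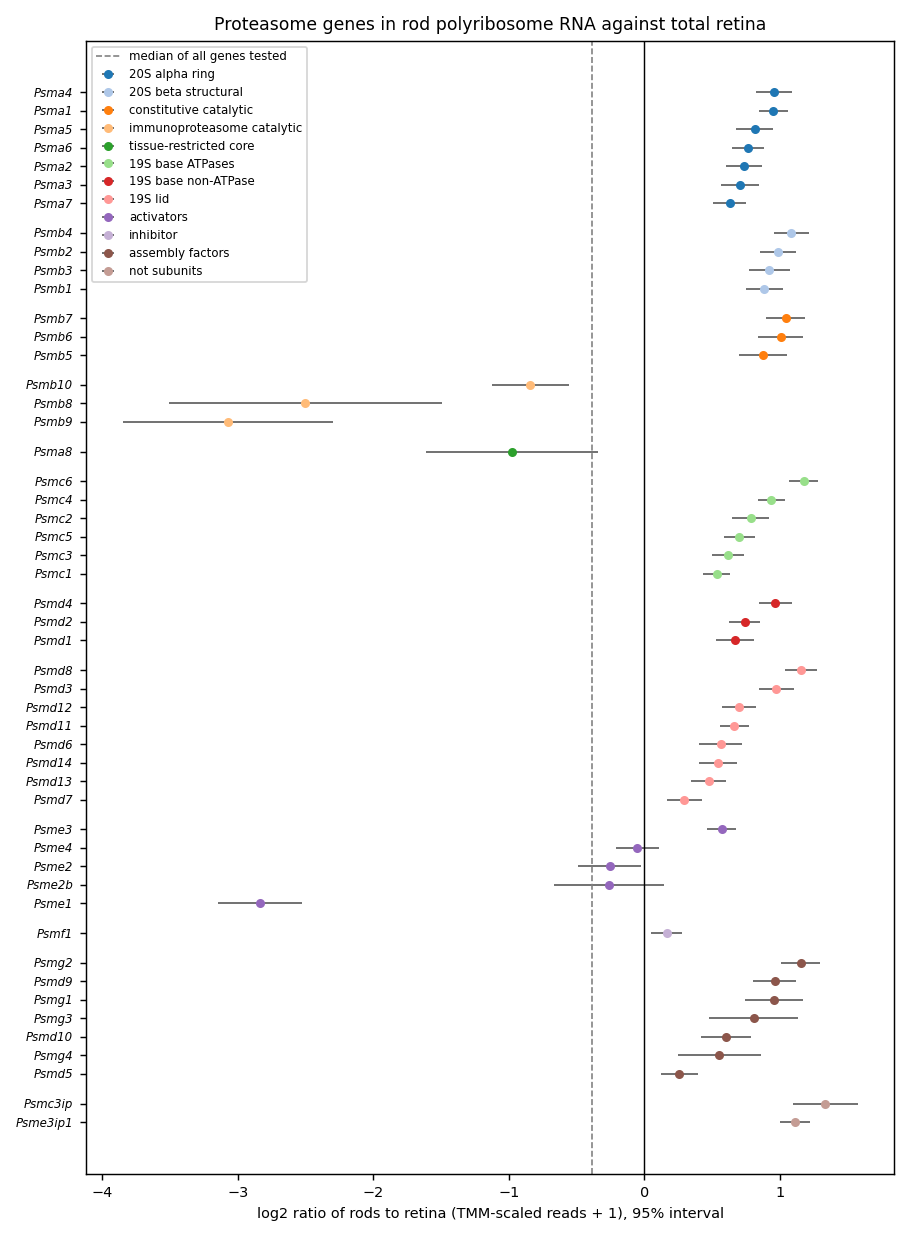
Log2 ratio of rods to retina on TMM-scaled reads for the 50 proteasome genes tested, grouped by role, with 95% intervals from limma over 12 libraries; the dashed line is the median of all genes tested (-0.39). Constitutive core, cap and assembly genes lie right of 0. Left of it lie *Psmb8*, *Psmb9*, *Psmb10*, *Psme1* and the rarely read *Psma8*, and nearer to it *Psme2*, *Psme2b* and *Psme4*. With total reads *Psmc1*, *Psmd6*, *Psmd7*, *Psmd13*, *Psmd14*, *Psmf1*, *Psmd5* and *Psmg4* also fall left of 0.

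The alpha ring, which gates the entry to the core, was higher in rods by a log2 ratio of 0.63 (*Psma7*) to 0.96 (*Psma4*). *Psma4* read 1423, 1255 and 1457 scaled reads in control rods, 1552, 1508 and 1329 in Pkm2 Rodko rods, 826, 726 and 723 in control retina and 712, 692 and 703 in Pkm2 Rodko retina. *Psma7* read 1342 to 1559 (median 1389.7) over the 6 rod libraries and 863 to 985 (median 912) over the 6 retina libraries. Neither gene overlapped between rods and retina. With total reads the *Psma7* and *Psma3* differences missed the threshold, at log2 ratios of 0.06 (adjusted p = 0.335 from limma) and 0.13 (adjusted p = 0.0684).

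The 4 structural beta subunits, which complete the inner rings without cutting, lay in a narrow band of log2 ratios from 0.88 (*Psmb1*) to 1.08 (*Psmb4*). *Psmb4* read 2569.6, 2590.5 and 2881 scaled reads in control rods and 2863, 2503 and 2329 in Pkm2 Rodko rods, against 1219, 1230.4 and 1320.3 in control retina and 1301, 1178 and 1169 in Pkm2 Rodko retina. *Psmb1* ran from 1801 to 2214 in rods and from 1001 to 1183 in retina. All 4 also rose with total reads.

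The 3 constitutive catalytic subunits rose under both scalings as well. *Psmb5*, the chymotrypsin-like subunit, read 1300.0, 1028 and 1376 scaled reads in control rods and 1339, 1165 and 1015 in Pkm2 Rodko rods, against 653, 644 and 705 in control retina and 675, 654 and 583 in Pkm2 Rodko retina (log2 ratio of rods to retina 0.88 ± 0.08 SE, adjusted p = 1.21e-07 from limma). *Psmb6*, the caspase-like subunit, read 2465, 2127 and 2685 in control rods and 2826, 2382 and 2081 in Pkm2 Rodko rods, against 1275, 1244 and 1224 in control retina and 1268, 1129 and 1090.0 in Pkm2 Rodko retina (log2 ratio 1.003 ± 0.08 SE, adjusted p = 8.28e-09). The lowest rod library stood above the highest retina library for both genes. *Psmb7*, the trypsin-like subunit, read 1544, 1683 and 1613 in control rods and 1512, 1535 and 1433 in Pkm2 Rodko rods, against 861, 863 and 681 in control retina and 740.4, 665 and 734 in Pkm2 Rodko retina (log2 ratio 1.04 ± 0.07 SE, adjusted p = 9.40e-10). The 95% intervals of the 3 log2 ratios (0.70 to 1.05, 0.84 to 1.17 and 0.90 to 1.18) overlapped, and the differences among them were not tested.

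The immunoproteasome subunits went the other way and were rare in both fractions. *Psmb8*, which replaces *Psmb5*, read 8.01, 0.911 and 15.6 scaled reads in control rods and 7.64, 1.33 and 3.94 in Pkm2 Rodko rods, against 37.4, 22.0 and 41.2 in control retina and 35.8, 26.1 and 24.1 in Pkm2 Rodko retina. These are 27 reads over the 6 rod libraries and 231 over the 6 retina libraries, a pooled ratio of 0.175 (exact 95% counting interval 0.113 to 0.261), and the fitted log2 ratio was -2.50 ± 0.47 SE (adjusted p = 1.98e-04 from limma). The rod values scattered widely but stayed below every retina library. *Psmb9*, which replaces *Psmb6*, read 1.60, 1.82 and 6.23 in control rods and 1.27, 0 and 0.985 in Pkm2 Rodko rods, against 30.9, 16.7 and 27.0 in control retina and 19.2, 14.1 and 16.7 in Pkm2 Rodko retina. With 9 reads in rods and 154 in retina the pooled ratio was 0.0873 (0.0392 to 0.170), and the fitted log2 ratio was -3.07 ± 0.36 SE (adjusted p = 1.51e-06 from limma). *Psmb9* was thus read 0 to 4 times in a rod library and 18 to 38 times in a retina library.

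*Psmb10*, which replaces *Psmb7*, was the most abundant of the 3 and the least reduced. It read 78.5, 62.8 and 94.95 scaled reads in control rods and 71.3, 59.8 and 60.1 in Pkm2 Rodko rods, against 117, 128 and 149 in control retina and 139.5, 118 and 112 in Pkm2 Rodko retina (log2 ratio -0.84 ± 0.13 SE, adjusted p = 3.51e-05 from limma). Its interval, -1.13 to -0.56, did not reach those of *Psmb8* (-3.51 to -1.49) or *Psmb9* (-3.85 to -2.30). All 3 fell under each of the 4 scalings tried. In the GENCODE vM21 gene models, 212 bases of *Psmb9* exons overlap *Tap1* and 498 bases of *Psmb8* exons overlap Gm20496, each on the opposite strand. Among the constitutive counterparts, 405 bases of *Psmb7* exons overlap *Nek6* on the opposite strand, and 109 bases of *Psmb5* exons overlap *Mir686* on the same strand. How the counting used strand is not given in the sources used here.

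**Figure D2:**
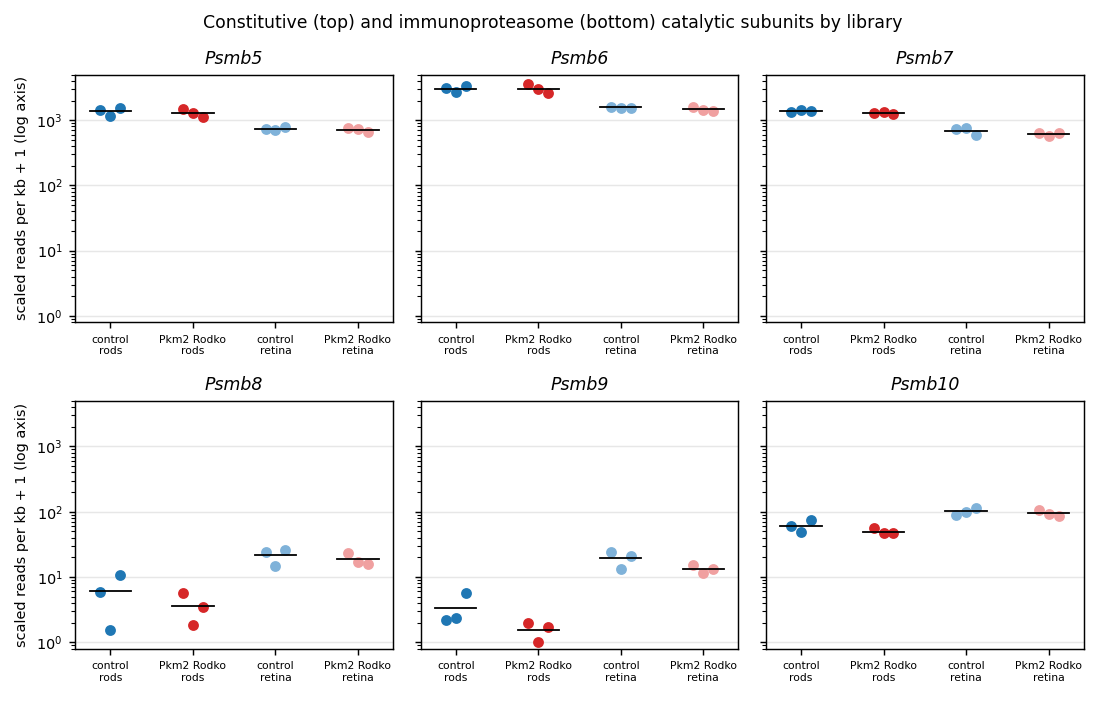
Scaled reads per kb of principal transcript, plus 1, on a log axis for the 3 constitutive (top) and 3 immunoproteasome (bottom) catalytic subunits; points are libraries, 3 in each of 4 groups, and bars are group means. The constitutive subunits are higher in rods than in retina and the immunoproteasome subunits lower, with *Psmb9* at 0 reads in 1 Pkm2 Rodko rod library.

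Ratios within a library need no scaling between libraries. Per kb of transcript, the summed level of *Psmb8*, *Psmb9* and *Psmb10* was 1.13%, 0.948% and 1.38% of the summed level of *Psmb5*, *Psmb6* and *Psmb7* in control rods and 0.948%, 0.829% and 0.985% in Pkm2 Rodko rods. It was 4.41%, 4.09% and 5.47% in control retina and 4.79%, 4.30% and 4.26% in Pkm2 Rodko retina, so that the highest rod library lay below the lowest retina library. The mean over retina libraries was 4.40 times that over rod libraries, and the log2 ratio differed by -2.15 (SD over the 6 rod and retina pairs 0.17). By pair, *Psmb8* reached at most 0.625% of *Psmb5* in rods and 1.89% to 3.23% in retina. *Psmb9* reached at most 0.137% of *Psmb6* in rods and 0.739% to 1.43% in retina, and *Psmb10* was 3.30% to 5.21% of *Psmb7* in rods and 12.04% to 19.4% in retina. *Psmb10* came closest to the level of its counterpart in both fractions.

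Genes of antigen processing and interferon went both ways. In a list of 10 such genes, 6 fell and 4 rose in rods (median log2 ratio -1.26), beside 42.7% and 27.2% of all genes. With total reads 6 fell and 1 rose (median -1.82), beside 57.5% and 10.6% of all genes. *B2m*, the light chain of class I molecules, was lowest, at 25.5 to 165 scaled reads (median 50.9) in rods and 426 to 1287 (median 759) in retina, a log2 ratio of -3.55. *Tapbp*, which loads peptides onto class I molecules, was highest, at 1729 to 2284 in rods and 675 to 926 in retina (1.26, adjusted p = 1.65e-09 from limma). *Tap1*, the peptide transporter that neighbours *Psmb9*, read 0 to 9.34 in rods and 32.6 to 57.6 in retina. The summed microglial markers ran from 68.3 to 167 scaled reads in control rods and 75.8 to 125 in Pkm2 Rodko rods, against 608 to 1230 in control retina and 739 to 889 in Pkm2 Rodko retina. The summed endothelial markers ran from 236 to 314 and 168 to 206 in control and Pkm2 Rodko rods, against 1721 to 1807 and 1570 to 1621 in retina. The part of these cells in the immunoproteasome values was not tested.

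The 2 tissue-restricted subunits were at or near 0. *Psma8*, the alpha subunit of the testis, had 0 reads in every rod library and 8 over the 6 retina libraries (1, 0 and 2 in control, 2, 2 and 1 in Pkm2 Rodko). Against a floor of 3 reads over the 6 rod libraries the difference was 1.79-fold, which leaves out the counting error of the 8 reads. *Psma8* passed the filter, a mean of at least 1 scaled read in 1 group, only through Pkm2 Rodko retina. Its mean there was 1.39, against 0.745 in control retina. The fit called it lower in rods (adjusted p = 8.61e-03 from limma). That call rests on those 8 reads and on a filter passed where the gene was highest, so no difference is read from it. *Psmb11*, the thymus-specific catalytic subunit, had 4 reads, all in 1 Pkm2 Rodko retina library, and was not tested between rods and retina.

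The 19S cap genes spanned a wider range of log2 ratios (0.30 to 1.17) than the core genes (0.63 to 1.08). Among the 6 ATPases, which unfold the substrate, *Psmc6* was highest at 2882, 3093 and 2771 scaled reads in control rods and 2934, 2987 and 3006 in Pkm2 Rodko rods, against 1357, 1388 and 1249 in control retina and 1267, 1224 and 1345 in Pkm2 Rodko retina (log2 ratio 1.17 ± 0.05 SE). *Psmc1* was lowest at 2513 to 2778 (median 2674) in rods and 1710.2 to 2011 (median 1841) in retina (0.53 ± 0.05 SE), and with total reads its ratio was -0.03. Their 95% intervals were 1.07 to 1.28 and 0.43 to 0.63. Among the other base subunits, the ubiquitin receptor *Psmd4* rose most, from 1106 to 1281 scaled reads in retina to 2123 to 2479.8 in rods (0.97 ± 0.06 SE). *Psmd1*, a scaffold of the base, rose least, from 1214 to 1452 in retina to 1927 to 2466 in rods (0.67 ± 0.07 SE), and missed the threshold with total reads (0.10, adjusted p = 0.179 from limma). The third, *Psmd2*, also a scaffold, had a log2 ratio of 0.74.

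The lid, which holds the deubiquitinase *Psmd14*, ranged from *Psmd7* to *Psmd8*. *Psmd8*, a structural lid subunit, read 3852, 3799 and 4217 scaled reads in control rods and 4201, 4029 and 3509 in Pkm2 Rodko rods, against 1793, 1712 and 1760.4 in control retina and 1767, 1698 and 1874 in Pkm2 Rodko retina (log2 ratio 1.15 ± 0.06 SE, adjusted p = 3.39e-11 from limma). *Psmd7*, which pairs with *Psmd14*, read 1210.2, 1195 and 1238 in control rods and 1396, 1145 and 1116 in Pkm2 Rodko rods, against 1012, 992 and 1001 in control retina and 1024, 934 and 973 in Pkm2 Rodko retina (0.30 ± 0.06 SE, adjusted p = 4.59e-04). Rods were above retina in every library for *Psmd7* on this scale, but with total reads it was lower in rods (-0.27, adjusted p = 8.84e-04). *Psmd14* itself had a log2 ratio of 0.54 with TMM and -0.03 with total reads. In vM21, 342 bases of *Psmd13* exons overlap *Sirt3* on the opposite strand, and 301 bases of *Psmd1* exons overlap Gm21972 on the same strand.

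**Figure D3:**
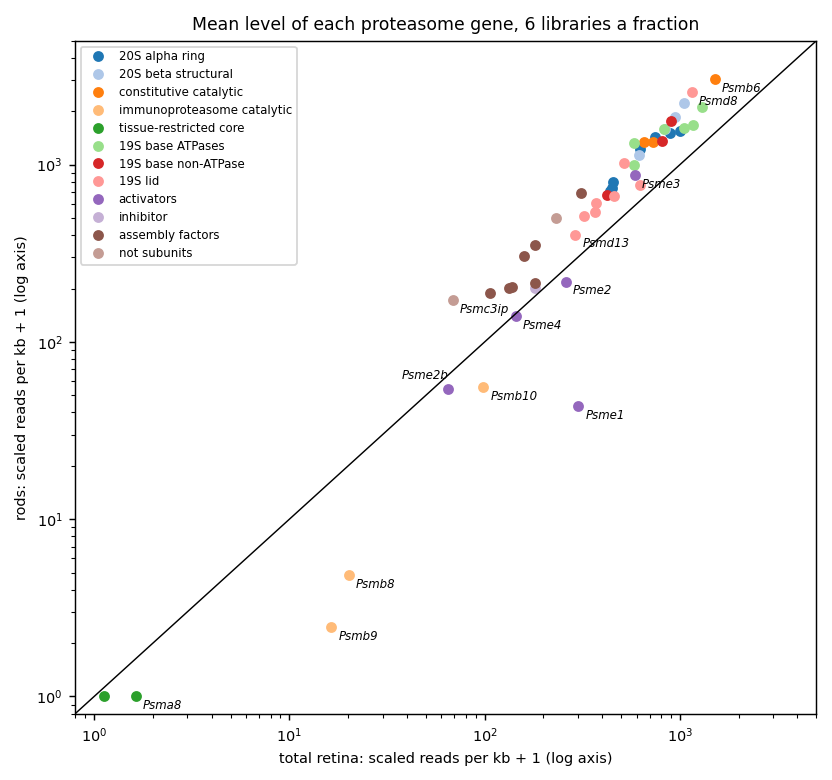
Mean scaled reads per kb of principal transcript, plus 1, in rods against retina for the 51 genes, both axes logarithmic, each point 1 gene over 6 libraries a fraction; the line marks equal levels. The constitutive core and cap genes lie above the line on this scale (8 cap, assembly and inhibitor genes do not with total reads). Below it lie *Psme1*, *Psmb8*, *Psmb9* and *Psmb10*, the rarely read *Psma8* and *Psmb11*, and, nearer to it, *Psme2*, *Psme2b* and *Psme4*.

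Subunits that enter the complex in equal number did not have equal RNA levels. Per kb of principal transcript, the 14 constitutive core genes ran in control rods from 709 (*Psma3*) to 3040 scaled reads (*Psmb6*), a 4.29-fold range, and in control retina from 462 to 1563, a 3.39-fold range with the same genes at its ends. The 17 cap genes ran in control rods from 390.0 (*Psmd13*) to 2569 (*Psmd8*), a 6.59-fold range, and in control retina from 297 (*Psmd13*) to 1349 (*Psmc5*), a 4.53-fold range. The core median was 1406 in control rods and the cap median 1047, against 761 and 615 in control retina. These levels rest on 1 transcript length per gene. Over 44 members, leaving out the immunoproteasome, tissue-restricted and non-subunit genes, the log2 ratio of rods to retina had a Spearman rho of -0.22 with transcript length and 0.23 with the level in retina, given as a description of genes that share the same 12 libraries.

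The activators split. *Psme1*, the alpha chain of PA28, read 41.7, 54.7 and 63.8 scaled reads in control rods and 54.8, 33.2 and 33.5 in Pkm2 Rodko rods, against 364, 307 and 392 in control retina and 309, 335 and 292 in Pkm2 Rodko retina. All rod libraries lay far below all retina libraries, with a log2 ratio of -2.84 ± 0.15 SE (adjusted p = 6.98e-11 from limma). Its partner *Psme2*, the beta chain, read 234, 180.4 and 254 in control rods and 232, 178 and 177 in Pkm2 Rodko rods, against 276, 231 and 295 in control retina and 247, 216 and 229 in Pkm2 Rodko retina. The groups overlapped, and the log2 ratio of -0.26 (interval -0.49 to -0.02, adjusted p = 0.0467 from limma) missed the threshold when any of 9 of the 12 libraries was left out (adjusted p up to 0.120). With total reads *Psme2* was called lower in rods by a wider margin (-0.82, adjusted p = 4.03e-06 from limma). Its deposited values were 142.6 to 200.9 in rods and 262.3 to 356 in retina. These were scaled within each fraction and share no common scale, so their distance is not a measure of the difference. Within a library, *Psme1* per kb was 15.4% to 26.2% of *Psme2* in rods and 108% to 134% in retina. The mean ratio of *Psme1* to *Psme2* in retina was 5.99 times that in rods, and being a ratio within a library it does not depend on the scaling between libraries. With *Psme2b*, a near-copy of *Psme2* whose reads cannot be separated with certainty, added to *Psme2*, the ratio was 12.5% to 21.5% in rods and 84.3% to 111% in retina.

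*Psme2b* alone read 34.6 to 54.8 scaled reads in rods and 38.7 to 66.7 in retina, which overlapped (log2 ratio -0.26, adjusted p = 0.228 from limma). With total reads it was called lower in rods (-0.82, adjusted p = 1.03e-03 from limma). Its deposited values, scaled within each fraction and without a common scale, were 27.7 to 43.6 in rods and 47 to 79.9 in retina. *Psme3*, or PA28 gamma, the nuclear activator, was the only activator that rose on the TMM scale, from 1472 to 1634 in retina to 2217 to 2487 in rods (0.57 ± 0.05 SE); with total reads its log2 ratio was 0.00 and on the deposited values -0.03. *Psme4*, or PA200, a large single-chain activator, read 801 to 1113 in rods and 869 to 975 in retina, with a log2 ratio of -0.05 and an interval of -0.21 to 0.11, and was lower in rods with total reads (-0.62, adjusted p = 2.16e-06 from limma). In retina *Psme2* stood at 39.5% to 52.0% of *Psme3* per kb, and in rods at 21.6% to 29.1%. The inhibitor *Psmf1* (PI31) read 744.7 to 795 in rods and 644 to 745.1 in retina, which met at their ends (0.16, adjusted p = 0.0134 from limma), and was lower in rods with total reads (-0.40, adjusted p = 6.19e-06).

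**Figure D4:**
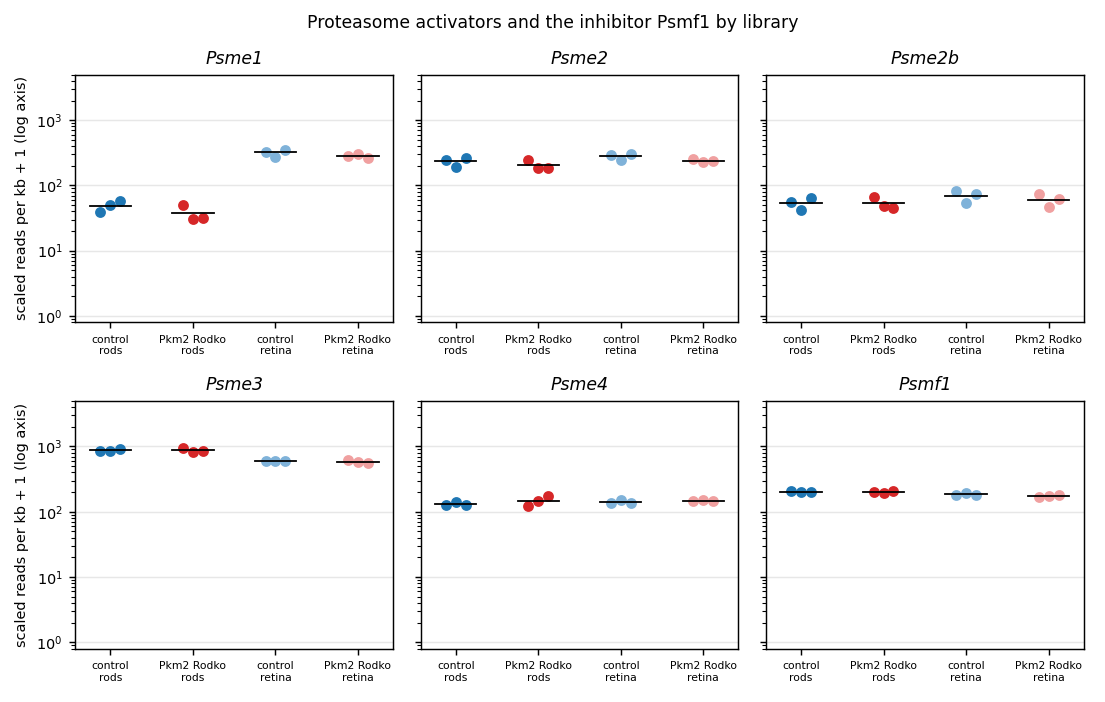
Scaled reads per kb of principal transcript, plus 1, on a log axis for 5 proteasome activators and the inhibitor *Psmf1*; points are libraries, 3 in each of 4 groups, and bars are group means. *Psme1* lies far lower in rods than in retina, while the libraries of its partner *Psme2* overlap on this scale. With total reads *Psme2* is called lower in rods. *Psme3* lies higher in rods here, but not with total reads.

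All 7 assembly factors were higher in rods on the TMM scale, where 27.2% of all genes rose. With total reads 3 rose and 1 fell, while 10.6% of all genes rose and 57.5% fell. *Psmg2*, which with *Psmg1* chaperones alpha-ring assembly, read 670.0, 701 and 764 scaled reads in control rods and 814, 718 and 727 in Pkm2 Rodko rods, against 341, 342 and 297 in control retina and 342, 338 and 314 in Pkm2 Rodko retina (log2 ratio 1.15 ± 0.07 SE). *Psmg1* read 319 to 446 in rods and 168 to 226 in retina (0.96). The intervals of these partners, 1.01 to 1.30 and 0.74 to 1.17, overlapped. The other core chaperones, *Psmg3* and *Psmg4*, read 122 to 222 and 89.6 to 133 in rods against 79.3 to 111 and 63.1 to 88.0 in retina (0.81 and 0.55).

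The chaperones of the cap's base differed among themselves. *Psmd9* (p27) had 707 to 888 scaled reads in rods and 367 to 470.1 in retina (log2 ratio 0.96 ± 0.08 SE). *Psmd10* (gankyrin) had 259.9 to 316 and 169.7 to 206 (0.60 ± 0.09 SE), and *Psmd5* (S5b) 821 to 1046 and 730.1 to 835 (0.26 ± 0.06 SE). *Psmd5* overlapped between rods and retina and was lower in rods with total reads (-0.31, adjusted p = 7.67e-04 from limma). In vM21, 1849 bases of *Psmd9* exons overlap Gm26745 on the opposite strand, and 280 bases of *Psmg3* exons overlap Gm26938 on the same strand. *Psmc3ip*, a meiotic recombination factor, and *Psme3ip1*, a partner of PA28 gamma, had log2 ratios of 1.33 and 1.11; the first read 191 to 245 in rods and 68.9 to 101 in retina, and 385 bases of its exons overlap *Mlx* on the opposite strand.

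Other genes of the pathway mostly moved with the constitutive complex on the TMM scale, where 27.2% of all genes rose and 42.7% fell. Of 4 further subunits and assembly genes in the table, 4 rose, from 0.52 (*Sem1*, a lid subunit) to 0.74 (*Akirin2*, which brings proteasomes into the nucleus). Of 11 bound enzymes and shuttle factors, 9 rose and 1 fell, with the lowest log2 ratio at *Ecpas*, a proteasome adaptor (-0.28). Of 5 genes that control proteasome genes, 4 rose, *Vcp*, the unfoldase p97, most, at 5618 to 6149 scaled reads in rods and 2473 to 2942 in retina (1.14). *Nfe2l1*, the transcription factor that raises proteasome genes when activity falls, was the one that fell, at 2745 to 3373 scaled reads in rods and 3611 to 4199 in retina (-0.33, adjusted p = 1.87e-04 from limma). Of 6 ubiquitin and ubiquitin-activation genes, 4 rose and none fell, *Ubb*, a polyubiquitin gene, most (1.26). With total reads these lists gave 1 rise and no fall, 3 and 4, 2 and 2, and 3 and 2, in that order. Of all genes, 10.6% rose and 57.5% fell on that scale.

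Loss of *Pkm2* in rods was compared within each fraction on the deposited values, which the authors had scaled within the fraction. No proteasome gene passed an adjusted p of 0.05 in rods (0 of 49 tested) or in retina (0 of 51), where 0.0194% and 0.00391% of all genes did, and none had an unadjusted limma p under 0.05, against 4.77% and 4.18% of all genes. The edgeR quasi-likelihood test and DESeq2 on recovered reads also gave 0 in both fractions, adjusted and unadjusted. A limma fit of all 12 libraries also called none, with *Psmb9* in rods and *Psma6* in retina at an unadjusted p under 0.05 (adjusted p = 0.539 and 1). Over the 31 core and cap genes the 95% intervals of the log2 fold change stayed between -0.34 and 0.37 in rods and between -0.39 and 0.26 in retina. The median was -0.001 for the core and 0.02 for the cap in rods, and -0.11 and -0.06 in retina, with medians over all genes of 0.006 and -0.004.

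The smallest p-values in rods belonged to *Psmb9*, *Psmd6* and *Psmd14*. *Psmb9* had deposited values of 1.3, 1.5 and 4.9 in control rods and 1, 0 and 0.8 in Pkm2 Rodko rods (log2 fold change -1.08, interval -2.52 to 0.36, adjusted p = 0.932 from limma). It passed the filter, a mean of at least 1 in 1 genotype, only through control rods (2.57, against 0.6 in Pkm2 Rodko rods). No difference is therefore read from *Psmb9*, including its lack of overlap given below. *Psmd6*, a lid subunit, had 599.7, 552 and 548 in control rods and 645, 601 and 649 in Pkm2 Rodko rods (0.16, interval -0.06 to 0.37). *Psmd14* had 798, 805 and 739 in control rods and 829, 902 and 844 in Pkm2 Rodko rods (0.14, interval -0.07 to 0.34). The genotypes did not overlap for *Psmd6*, *Psmd14* and *Psmd11*, which lay higher (6.12% of 49 genes), and for *Psmb9*, which lay lower (2.04%), while in all they did not overlap for 9.89% of all genes tested in rods.

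In retina the smallest p-values belonged to *Psma6*, *Psmb2* and *Psma5*. *Psma6* had deposited values of 1239.9, 1216 and 1112 in control retina and 1103, 1022 and 1070.2 in Pkm2 Rodko retina (log2 fold change -0.16, interval -0.33 to 0.02, adjusted p = 0.947 from limma). *Psmb2* had 1146, 1009 and 956 against 955, 921 and 893 (-0.16, interval -0.36 to 0.03), and *Psma5* 737, 800.4 and 645 against 629.8, 658 and 633 (-0.18, interval -0.39 to 0.03). The log2 fold change was below 0 for 38 of the 51 genes, with a median of -0.07, beside -0.004 over all genes. The 13 above 0 include *Psma8* and *Psmb11*, which passed the filter only through Pkm2 Rodko retina. Their mean deposited values there were 1.67 and 1.2, against 0.9 and 0 in control retina. The signs of the 51 genes are not independent, since members shifted together between libraries. Of 31 core and cap genes, 26 lay above the group mean in control retina replicate 1 and 6 in control retina replicate 3. The genotypes did not overlap for 6 genes, all lower in Pkm2 Rodko retina (*Psma1*, *Psma4*, *Psma6*, *Psmb2*, *Psmc1* and *Psmd4*), or 11.8%, against 9.29% of all genes.

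**Figure D5:**
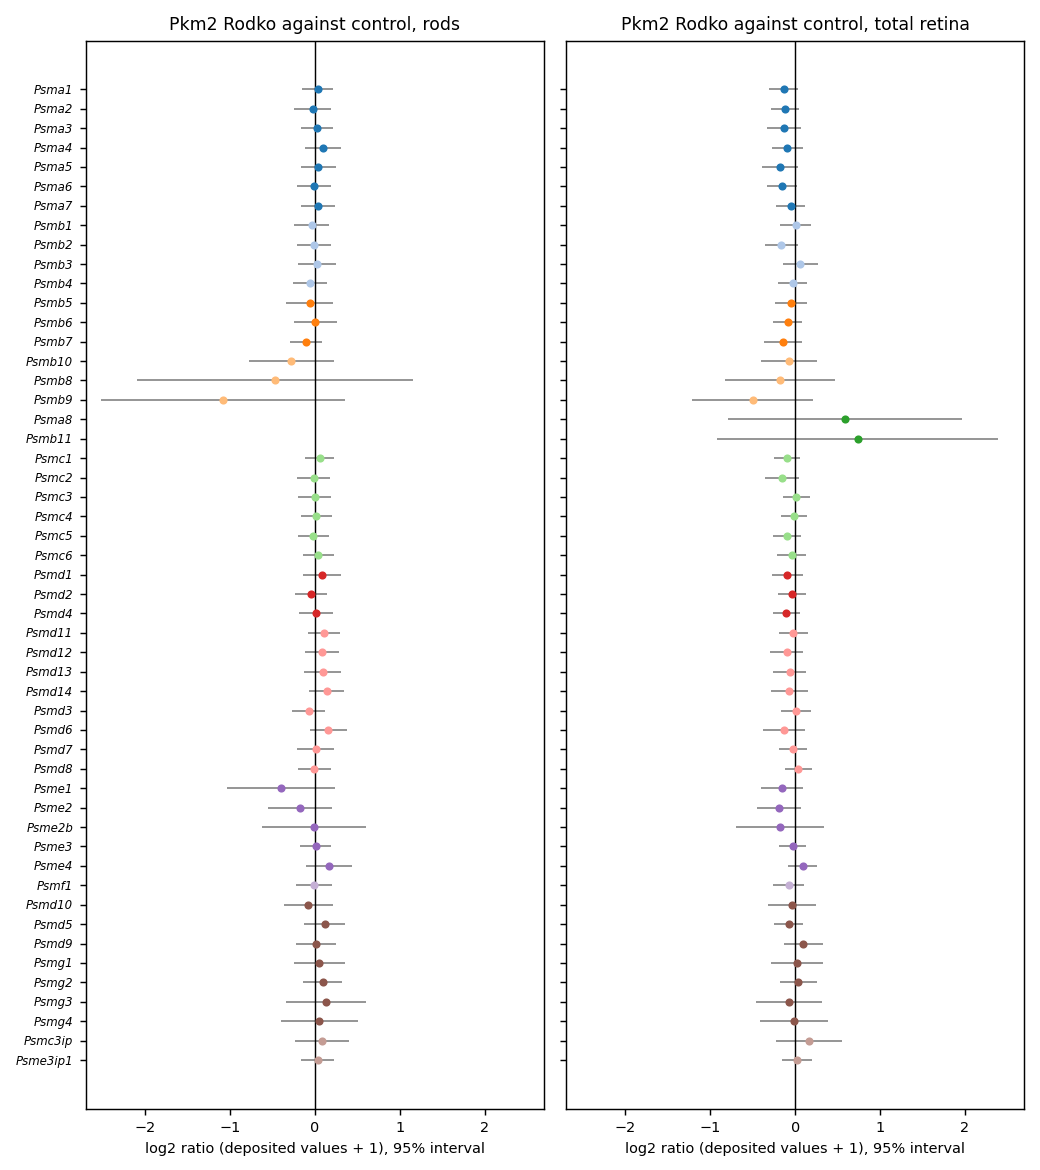
Log2 ratio of Pkm2 Rodko to control on the deposited values, with 95% intervals from limma, in rods (49 genes) and retina (51 genes), 3 libraries a group. Every interval includes 0, and the widest belong to the rarely read *Psmb8*, *Psmb9*, *Psma8* and *Psmb11*.

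In rods, *Psmb8*, *Psmb9* and *Psme1* had the largest standard errors of the genotype effect among the members tested. There the log2 fold changes were -1.08 for *Psmb9*, -0.47 for *Psmb8*, -0.28 for *Psmb10* and -0.40 for *Psme1*, none with an unadjusted p under 0.05. Of these, *Psmb9* passed the filter only through control rods. The ratio of immunoproteasome to constitutive catalytic subunits was 1.15% ± 0.22 (SD, n = 3) in control rods and 0.921% ± 0.081 in Pkm2 Rodko rods. The genotypes overlapped in this ratio. No marker of another cell type passed the test between the same rod libraries. The 9 microglial markers went both ways, from -1.54 (*Trem2*) to 1.32 (*Aif1*), with 7 below 0 and a median log2 fold change of -0.13, and so did the 7 endothelial markers (-0.99 to 0.82, 5 below 0, median -0.30). The medians were -0.35 over 6 Müller glial, -0.45 over 8 bipolar, -0.53 over 8 amacrine and ganglion and -0.11 over 6 cone markers, with 6, 7, 8 and 6 of them below 0, and 0.06 over 8 rod markers. Their part in the immunoproteasome values was not tested.

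The genotype effects of rods and retina were then compared directly, as the difference of the log2 fold changes in 1 fit of all 12 libraries. No member of the 50 tested passed the adjusted threshold, and neither did any other gene (0% of 25478; DESeq2 called 1 gene, no member). No member had an unadjusted p under 0.05 either, against 4.43% of all genes. edgeR and DESeq2 gave the same count of 0 members, adjusted and unadjusted. With rod and retina libraries of a number treated as a pair, *Psmd6* had an unadjusted p under 0.05 (adjusted p = 0.760 from limma). The smallest p-values belonged to *Psmd6*, with a difference of 0.30 (interval -0.02 to 0.62, adjusted p = 0.978 from limma), *Psma5* (0.23, interval -0.05 to 0.50) and *Psmd12*, a lid subunit (0.20, interval -0.05 to 0.44). *Psmd12* read 825, 921 and 932 deposited units in control rods and 945, 967 and 928 in Pkm2 Rodko rods, against 880.5, 895 and 893 in control retina and 805, 774 and 912 in Pkm2 Rodko retina, and its genotypes overlapped in both fractions.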

How the data were processed

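Polyadenylated RNA was sequenced from Rod-TRAP and total retina samples. Per the submitters' processing notes, CASAVA 1.8.2, HISAT2, DESeq2, edgeR and GRCm39 were used, with roles, strand setting and other versions not given in the sources used here. The deposited values are a signal per gene: the authors scaled reads by size factors that equal median-of-ratios factors over the 6 libraries of a fraction, to 1 decimal. Whole reads were recovered for 100% of positive values (tolerance 0.05 times the size factor). The deposited file held per-sample values for the 12 libraries and no other per-sample column was used.

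Members, gene lists and tests were chosen with earlier results of these data known. Genotypes were compared within fractions on log2(deposited value + 1) with limma 3.58.1 (trend) in R 4.3.3, among genes with a mean of at least 1 in 1 genotype. Rods and retina, and the difference of the genotype effects, were compared on recovered reads scaled by TMM (edgeR 4.0.16) over 12 libraries, with 4 group means. P-values were adjusted by Benjamini-Hochberg over all genes tested. Fold changes on the log2(value + 1) scale understate changes of low genes. Levels between genes were scaled reads per kb of the longest principal transcript of GENCODE vM21, matched by gene ID (51 of 51). Members named with values were the 6 catalytic subunits, the highest and lowest ratio in each role group, activators and assembly factors past the threshold, and the 3 smallest p of each genotype comparison, in every library or by their range over the 6 libraries of a fraction. Non-member pathway genes were named for the highest and lowest ratio of a list, some of which are not reported here, while *Tap1* and *Psmd11* were named after their values were seen. Counting intervals cover counting error only, and nothing in the labels says whether samples were separate animals, so p-values measure the spread between these samples. On the recovered reads, the edgeR quasi-likelihood test called 6775 genes higher and 10255 lower in rods, and 4 and 1 genes by genotype in rods and retina. The scripts were tested on simulated data. Alternatives were other scalings, a pseudocount of 0.1, other filters, edgeR, DESeq2 1.42.0, left-out libraries and a replicate block.

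Sample numbers paired rods with retina: deviations from group means correlated at 0.27 to 0.56 within all 6 same-numbered pairs of a genotype, the highest value for each library. Control and Pkm2 Rodko libraries of 1 number were not paired (-0.29 to 0.04).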

Additional observations from a re-analysis of the deposited data

How the results depend on the processing

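Scaling between fractions moved the values most. The deposited values were scaled within each fraction, so they give rods and retina no common scale. With total reads and on the deposited values, 25 and 23 members were higher in rods and 11 and 11 lower, and the median log2 ratios were 0.33 and 0.30 (core), 0.13 and 0.10 (cap), -0.82 and -0.85 (activators) and 0.24 and 0.21 (assembly). The log2 ratio fell below 0 with these scalings for *Psmc1* (-0.035, -0.067), *Psmd13* (-0.093, -0.13), *Psmd14* (-0.028, -0.060), *Psmd6* (-0.0061, -0.038), *Psmd7* (-0.27, -0.30), *Psmf1* (-0.40, -0.43), *Psmd5* (-0.31, -0.34) and *Psmg4* (-0.011, -0.043), and for *Psme3* on the deposited values (-0.030). Which scaling is nearer to RNA per rod was not tested. With 10 reads required in every library 3 members were lower, since fewer genes were tested. The immunoproteasome to constitutive ratio differed by -2.99 as a mean of log2 levels. *Pkm* in retina missed the threshold with 10 reads in every library (-0.65) and in 5 of 6 fits without 1 library (-0.68 to -0.61 over the 6). It also did with the replicate block (-0.65), which joins control and Pkm2 Rodko libraries that were not paired. The cause was not tested. A replicate block changed no other call, and with rod and retina libraries of a number joined, 42 members were higher and 6 lower. *Psmf1* missed the threshold with median-of-ratios and DESeq2 (adjusted p = 0.126 and 0.123), and *Psme2* with no filter (adjusted p = 0.0543). Over all genes DESeq2 called 7 genes by genotype in rods, where limma called 4. Without 1 library, 0 members were called by genotype. At 0 to 4 reads a library, depth limits *Psmb9* in rods.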
